A study of Mus musculus with 20 samples.

Results

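The proteins of the cytosolic ribosome were followed as a gene family through soleus muscle RNA from 20 C57BL/6J mice. The family was taken as the protein-coding mouse genes whose symbols follow the Rpl, Rps, Rplp and Rpsa naming pattern, which gave 80 of 56941 gene rows, 49 for the large subunit and 31 for the small subunit, on 19 chromosomes. The exposed group, labelled space, held 10 libraries from mice given 14 days of hind-limb unloading, ionizing radiation and a stress hormone supplied through the diet. The control group held 10 libraries from mice that were sham-irradiated and otherwise kept in a similar way. The 3 exposures were given together, so their separate parts cannot be told apart, and no dose, age or sex is used here. Each library was one whole soleus, a small postural muscle of the hind limb rich in slow fibres, and 90 ng of its total RNA, depleted of ribosomal RNA, went into the library. The labels give no batch and say nothing on pairing between the groups.

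A eukaryotic ribosome is made of a small subunit, which reads the mRNA, and a large subunit, which joins amino acids into the protein. Each subunit is a core of ribosomal RNA dressed with ribosomal proteins, most of them present once per ribosome, so cells make them in balanced amounts. Their mRNAs usually begin with a terminal oligopyrimidine tract, a run of C and T bases at the first transcribed base, through which growth signals from mTOR control their translation. Ribosome number is one of the main limits on how much protein a muscle fibre can make, and ribosomal protein mRNA is one of the inputs to it.

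Because that tract is the feature by which the family is known, a pyrimidine stretch near the annotated start is shown for the 5 members whose exposed libraries all lay above all control libraries, for the member that fell most, and for members discussed later. The sequences are 30 bases of the gene strand from RefSeq on GRCm38.p6, and capitals mark the longest run of C and T in the window from 30 bases before to 50 bases after the RefSeq start, or the first of them where runs tied. Where a gene had several RefSeq starts, the start with the longest run was used.
Rps15a, chr7:118116138-118116167, minus strand: gcccaCTCTCTTTCTgccatcttccctcgc
Rps25, chr9:44407687-44407716, plus strand: ccgggCTTCCTTTTTTTCCgacatcttagc
Rpl5, chr5:107900503-107900532, plus strand: agccaCTCTTTCTCacgtcgcttgcgtgct
Rpl10a, chr17:28328577-28328606, plus strand: ctctgCCTTCTTTCCggtttccgcggcagc
Rpl12, chr2:32961732-32961761, plus strand: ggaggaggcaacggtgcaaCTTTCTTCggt
Rps13, chr7:116334154-116334183, minus strand: cgtcaCTTCCTgtgcggcttgatttcctgt
Rpl4, chr9:64173407-64173436, plus strand: gcgtggCCTTCTCCTCTCCCCgtcatggtg
Rps27, chr3:90213626-90213655, minus strand: tttcgCTCCTTTCCggcggtgacgacctcc
Rps27l, chr9:66946059-66946088, plus strand: ctccaCTCCTCTCCactcctccccgccgcc
Rpl3l, chr17:24727846-24727875, plus strand: tggtggggaggCCCCTTCCTaacctgcagg
The run spanned 14 bases in Rps25 and 15 in Rpl4, against 6 in Rps13 and 8 in Rpl12. Counted from the RefSeq start as 0, it began at -2 in Rps27, at -15 in Rps15a, at -20 in Rpl5 and at -22 in Rps25 and Rps27l. In the other members it began downstream of that start, at 12 in Rps13, 17 in Rpl10a, 26 in Rpl4, 31 in Rpl3l and 39 in Rpl12. A marked run is therefore not shown to be the tract at the first transcribed base. Rps13 had 3 runs and Rps27l 2 runs of the marked length in the window.

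Of the 80 members, 60 were matched to the RefSeq promoter table. A run of at least 8 C or T bases lay in that window in 48 of them (80.0%), against 32.3% of the 27025 genes in the table. The letters CTTTCC stood on the gene strand in 18 of 60 members (30%) against 4.36% of all genes, and on the opposite strand in 1 of 60 (1.67%) against 4.23%. In the whole promoter entry of 300 bases, from 250 before to 50 after the start, CCGGAAG, a core of ETS-type sites, lay on either strand in 25 of 60 members (41.7%) against 9.93% of all genes. In the same 300 bases AAGATGG, a core of YY1 sites, lay on either strand in 9 of 60 members (15.0%) against 7.28%. These shares describe letters in a window of annotated starts and not binding. Where a gene had several such starts, a match at any of them counted, for members and for all genes. Among matched members that were tested, the median log2 fold change between the groups was 0.08 in the 16 with CTTTCC on the gene strand and 0.10 in the 40 without it. It was 0.11 in the 14 with CCGGAAG on the gene strand and 0.09 in the 42 without it, and 0.16 in the 4 with AAGATGG on the gene strand and 0.09 in the 52 without it. None of these differences was tested.

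The read counts summed to between 24062159 and 39620873 in exposed libraries and between 17336017 and 43424464 in control libraries. Levels are given as CPM, read counts scaled to a common library size after TMM scaling of library sizes. A gene is called higher or lower where its edgeR quasi-likelihood test gave a Benjamini-Hochberg adjusted p under 0.05 over all 16778 tested genes. The labels give 10 mice a group and tie no library to a mouse, so a p-value here rests on the spread from sample to sample. The 2 groups differed across the transcriptome: 57.6% of all tested genes were called, 28.7% higher and 28.9% lower in exposed muscle. Slow fibre markers, as 8 of 8 genes of that list, were lower in exposed muscle. Schwann cell markers stood apart in exposed replicates 1 to 4, where their summed level was 518 to 1504 CPM, against 95.1 to 183 CPM in exposed replicates 5 to 10 and 95.8 to 194 CPM in controls. Values without those 4 libraries are given where they change the call of a gene described here. In a bulk sample, fewer cells of a type and less RNA per cell cannot be told apart.

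Detection. Soleus expressed nearly the whole family, and 76 of 80 members passed the count filter, 46 of the large and 30 of the small subunit. The 4 others were Rpl10l, Rpl39l, Rpl24 and Rps10. Rpl10l, a retrogene copy of Rpl10 known from mouse testis, had 0 counts in all 20 libraries. This allows at most 0.0691 to 0.173 CPM per library (3 counts over library totals without TMM scaling, counting error only). Rpl39l, another copy known from mouse testis, averaged 0.0506 CPM in exposed and 0.0489 CPM in control muscle. Rpl24 and Rps10, which encode proteins of every ribosome, were listed at only 0.355 and 0.365 CPM in exposed muscle and at 0.251 and 0.214 CPM in control muscle. Rpl13a passed the filter at 1.501 ± 0.269 CPM in exposed and 1.90 ± 0.247 CPM in control muscle (SD, n = 10 each). In GENCODE M21 the exons of these 3 genes overlap a second gene model on the same strand (Gm28037, RPS10-NUDT3 and Gm45713). No source used here tells how reads shared by overlapping genes were counted, and the low values of the 3 genes are uncertain.

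Per kilobase of mRNA, the 75 other members lay between 38.8 and 311 CPM per kb in exposed and between 33.2 and 340 CPM per kb in control muscle, apart from Rps20 at 18.5 in exposed and 18.8 CPM per kb in control muscle, whose one coding model is long. Among large subunit genes the highest level was that of Rplp1, at 297 CPM per kb in exposed and 299 CPM per kb in control muscle. Rplp0 followed at 264 in exposed and 287 CPM per kb in control muscle, and Rpl4 had 259 in exposed and 210.2 CPM per kb in control muscle. Among small subunit genes Rps2 was highest, at 311 CPM per kb in exposed and 340 CPM per kb in control muscle. Rps29 had 242 in exposed and 248 CPM per kb in control muscle, and Rps15 had 260 in exposed and 244 CPM per kb in control muscle. Rplp1 and Rplp2, unlike most ribosomal proteins, are present in more than a single copy per ribosome. The lengths are those of one annotated coding transcript per gene, so these levels depend on the annotation.

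The family moved upward by a small amount. Of the 76 tested members, 39 were higher (51.3%) and 5 were lower (6.58%) in exposed muscle, and 32 were not called, against 28.7% higher and 28.9% lower among all tested genes. The share called in either direction, 57.9%, was near the 57.6% of all genes. The median log2 fold change was 0.11 over the members, a 1.08-fold difference, against 0.02 over all tested genes, and 62 of 76 members had a positive value. The sizes were small: the median absolute log2 fold change was 0.13 in the family against 0.27 over all genes, no member differed by 2-fold, and 1212 of all tested genes did. The family also spread less between libraries, with a median SD of log2 CPM of 0.11 in exposed and 0.08 in control muscle. Over all tested genes it was 0.20 in exposed and 0.18 in control muscle, and sizes were not compared at equal level or spread. The values ran from -0.68 for Rps13 to 0.47 for Rps27. With upper-quartile factors or library size alone, 55 members were higher and 2 lower, and without exposed replicates 1 to 4, 42 were higher and 2 lower. The shares over all tested genes moved as well: 34.8% were higher and 24.4% lower with upper-quartile factors, 35.4% and 22.4% with library size alone, and 25.2% and 26.1% without those 4 libraries. Relative to the median of all genes, the family's median was higher by 0.08 log2 units with TMM, 0.08 with upper-quartile factors and 0.09 with library size alone. It was higher by 0.05 with no filter, 0.11 with a CPM of 1 in 10 libraries and 0.13 without exposed replicates 1 to 4.

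**Figure D1:**
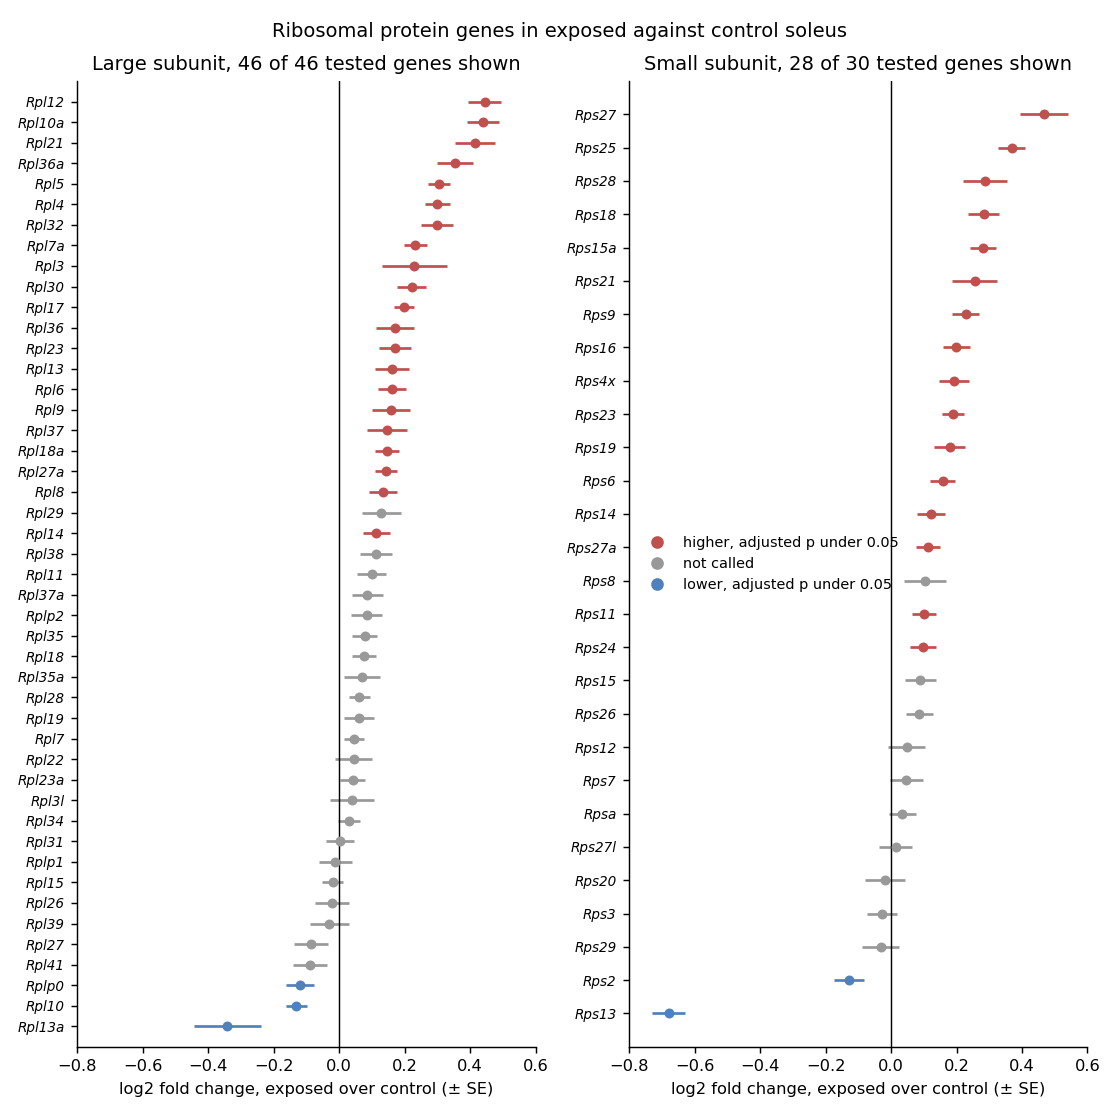
Log2 fold change of exposed over control soleus (x axis, ± SE of the difference of group means over 10 libraries each) for tested large (left) and small (right) subunit genes, sorted by size. Red marks genes called higher, grey genes not called and blue genes called lower; most points lie between 0 and 0.47, and Rps13 stands alone at -0.68.

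**Figure D2:**
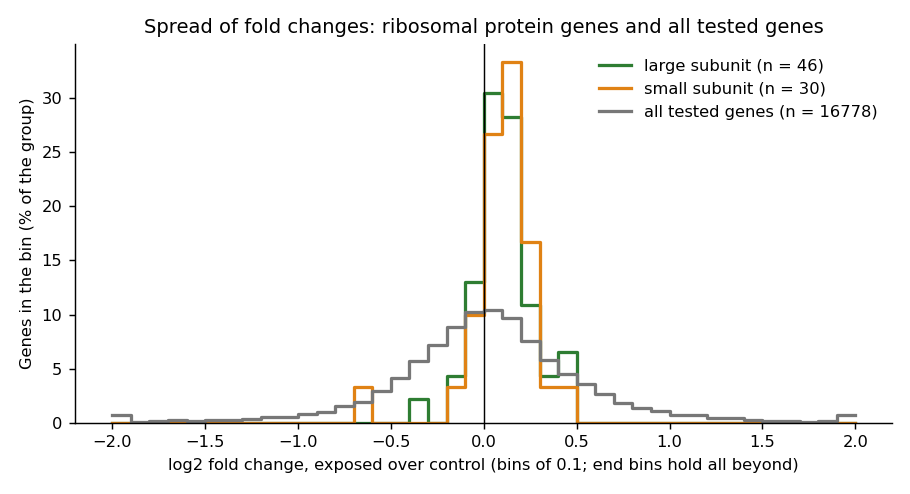
Share of genes (y axis, % of the group) by log2 fold change of exposed over control soleus in bins of 0.1 (x axis) for 46 large subunit genes, 30 small subunit genes and all 16778 tested genes; the end bins hold all genes beyond them. Both subunits form a narrow peak just above 0, while all genes spread wider. The median absolute value is 0.12 in the large subunit, 0.13 in the small subunit and 0.27 over all genes.

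In 5 of 76 tested members every exposed library lay above every control library, a share close to the 6.48% of all tested genes. Rps15a, a small subunit protein that binds 18S ribosomal RNA, had 60.96, 69.1 and 80.1 CPM as the lowest, median and highest exposed library and 53.4, 57.5 and 60.04 CPM as those of control. It was higher by a log2 fold change of 0.28 ± 0.040 (SE; edgeR adjusted p = 2.85e-06), and the lowest exposed library sat just above the highest control. Rpl5, which with Rpl11 and 5S ribosomal RNA forms the particle that can bind the p53 regulator Mdm2, had 139.8, 147 and 164 CPM in exposed and 110.7, 121 and 131 CPM in control libraries. The log2 fold change of Rpl5 was 0.31 ± 0.034 (SE; edgeR adjusted p = 2.27e-07).

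Rps25, a head protein needed in cells for translation from some viral internal ribosome entry sites, had 98.3, 109.5 and 118 CPM as lowest, median and highest in exposed libraries, against 73.8, 86.2 and 90.05 CPM in control. Its log2 fold change was 0.37 ± 0.041 (SE; edgeR adjusted p = 7.6e-08). Rpl10a, which forms the L1 stalk where spent tRNA leaves, had 51.03, 58.8 and 62.1 CPM in exposed and 34.9, 42.5 and 46.7 CPM in control libraries. It was 1.36-fold higher, or 0.44 ± 0.048 on the log2 scale (SE; edgeR adjusted p = 2.37e-08), and the groups were separated by a clear gap. Rpl12, at the base of the stalk that recruits elongation factors, had 122.0, 144 and 161 CPM in exposed libraries, against 96.1, 103.0 and 113 CPM in control. Its log2 fold change was 0.44 ± 0.050 (SE; edgeR adjusted p = 3.82e-08). All 5 were called in each of the 32 fits made, which changed scaling, filter, test or libraries. Overlapping models on the opposite strand exist for Rpl12 (Lrsam1), Rpl5 (Fam69a) and Rps25 (Ccdc84 and Trappc4) and held between 4.88% and 9.08% of the member's counts each.

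**Figure D3:**
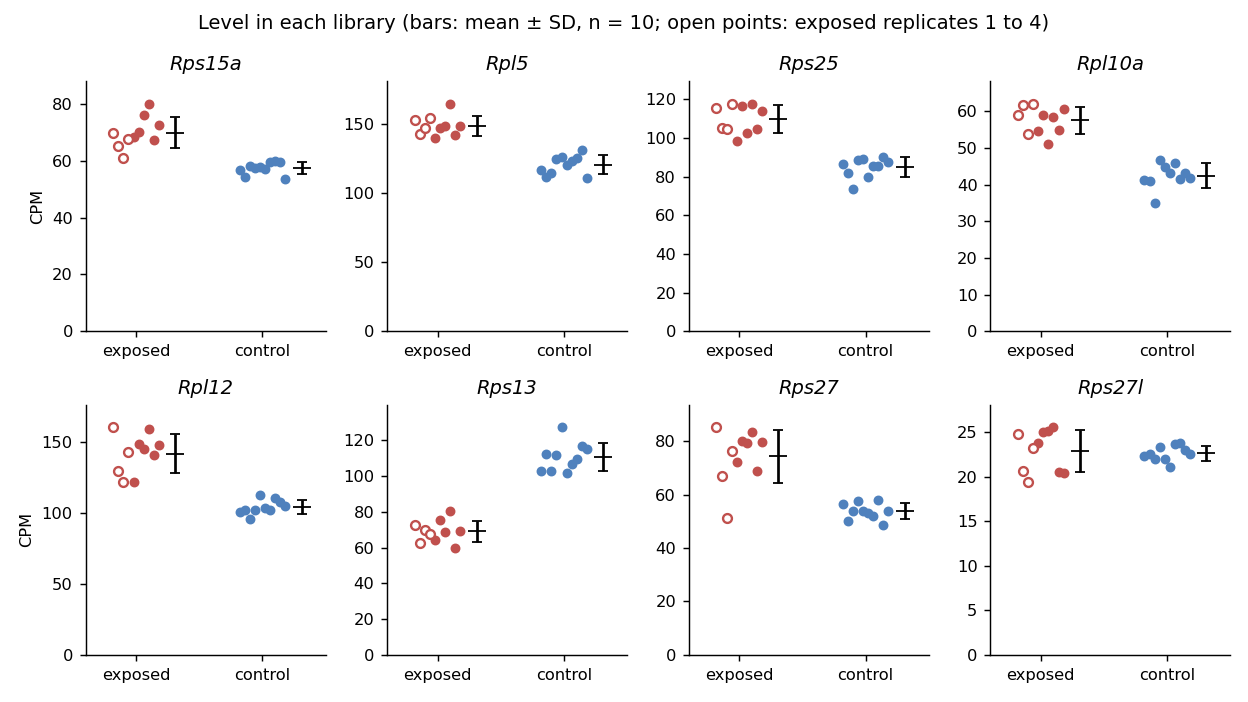
CPM (y axis, from 0) in each of 10 exposed and 10 control libraries for the 6 members whose groups did not overlap and for Rps27 and its paralog Rps27l; black bars are mean ± SD, and open points are exposed replicates 1 to 4. The 5 members of higher level and Rps13, which was lower, show separate clouds, and Rps27l averages 22.9 CPM in exposed and 22.6 CPM in control libraries.

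Other members with a large rise overlapped between groups. Rps27, a small subunit zinc-finger protein, had the largest rise of the family, with 51.3, 77.8 and 85.1 CPM as lowest, median and highest exposed library and 48.5, 53.9 and 58.0 CPM in control. It was 1.38-fold higher (log2 fold change 0.47 ± 0.073 SE, edgeR adjusted p = 1.84e-06) with 9 of 10 exposed libraries above the control mean, and 1 exposed library lay within the control range. Rpl21 had 58.1, 76.6 and 92.9 CPM in exposed and 53.0, 57.1 and 63.1 CPM in control libraries, a log2 fold change of 0.41 ± 0.061 (SE; edgeR adjusted p = 1.38e-06). Rpl36a, which lies near the exit site for tRNA, averaged 28.2 ± 2.5 CPM in exposed and 22.1 ± 1.9 CPM in control muscle (SD, n = 10 each; edgeR adjusted p = 5.53e-06). Rpl32, Rps28 at the mRNA exit channel and Rps18 of the subunit head were higher by 0.30, 0.29 and 0.28 log2 units with edgeR adjusted p of 1.33e-05, 0.000349 and 1.44e-05. Rpl32 overlaps Cand2, Rps28 overlaps Kank3 and Rps18 overlaps Vps52 on the opposite strand, and these neighbours held 240%, 73.5% and 54.3% of the member's counts. No source used here states whether reads were counted by strand, so reads of these 3 genes and their neighbours may not be separated.

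Rpl4, described below, was higher by 0.30 log2 units. The remaining members called higher ran from 0.10 log2 units (Rps24) to 0.26 (Rps21). Rps4x, the X-linked small subunit gene, averaged 162.0 ± 12.6 CPM in exposed and 142 ± 9.1 CPM in control muscle (SD, n = 10 each). Members that were not called ran from -0.09 (Rpl41) to 0.13 (Rpl29).

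One member went clearly the other way. Rps13, a small subunit protein that binds ribosomal RNA directly, had 59.99, 69.02 and 80.4 CPM as lowest, median and highest exposed library, against 101.8, 110.7 and 127 CPM in control. Every exposed library lay below every control library, which held for 1 of 76 tested members and for 11.0% of all tested genes in that direction. The level in exposed muscle was 0.624 of that in control, a log2 fold change of -0.68 ± 0.050 (SE; edgeR adjusted p = 3.65e-11), and it was called lower in all 32 fits. The fall was present in both sets of exposed libraries, with 62.9 to 72.7 CPM in replicates 1 to 4 and 59.99 to 80.4 CPM in replicates 5 to 10. The only gene model that overlaps its exons is the small nucleolar RNA Snord14a, with 0.230% of the counts of Rps13.

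The other 4 lower members changed less. Rpl13a, which in human monocytes leaves the ribosome to silence inflammatory mRNAs, differed by -0.34 ± 0.102 (SE; edgeR adjusted p = 0.0138) at under 2 CPM. Rpl10, which joins the large subunit late next to the peptidyl transferase centre, had 111.9 ± 6.1 CPM in exposed and 122.6 ± 5.3 CPM in control muscle (edgeR adjusted p = 0.00312). Rplp0, the core of the stalk, had 359 ± 26.6 CPM in exposed and 390.3 ± 23.5 CPM in control muscle (edgeR adjusted p = 0.03). Rps2, at the channel where mRNA enters, had 310.2 ± 28.2 CPM in exposed and 339 ± 12.4 CPM in control muscle (edgeR adjusted p = 0.0218; SD, n = 10 each in this paragraph). All 4 overlapped between groups, and 3 calls were lost under another scaling: with library size alone the edgeR adjusted p was 0.260 for Rpl10, 0.482 for Rplp0 and 0.344 for Rps2, and with upper-quartile factors 0.0699, 0.244 and 0.187. Without exposed replicates 1 to 4 it was 0.137 for Rpl13a, 0.203 for Rplp0 and 0.263 for Rps2. The call of Rplp0 was also lost with DESeq2 size factors (edgeR adjusted p = 0.0535), with a filter at a CPM of 1 in 10 libraries (edgeR adjusted p = 0.0519), and without any one of exposed replicates 2, 3 and 4 or control replicates 5 and 9 (edgeR adjusted p between 0.051 and 0.059).

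The members were also read by their place in the ribosome. In the stalk, which binds the GTPases of translation, Rplp1 had 148 ± 11.5 CPM in exposed and 149 ± 11.5 CPM in control muscle and Rplp2 had 92.8 ± 6.9 CPM in exposed and 87.6 ± 6.2 CPM in control muscle, and neither was called (edgeR adjusted p = 0.851 and 0.129; SD, n = 10 each). Rplp2 was called higher with upper-quartile factors (edgeR adjusted p = 0.00919), with library size alone (edgeR adjusted p = 0.0147) and without control replicate 9 or exposed replicate 2. In the 5S particle, Rpl11 had 60.4 ± 3.9 CPM in exposed and 56.4 ± 4.1 CPM in control muscle, a difference of 0.10 log2 units that was not called (edgeR adjusted p = 0.0612), while its partner Rpl5 was higher. Rpl11 was called higher with upper-quartile factors, library size alone, DESeq2 size factors, the DESeq2 test or a CPM of 1 in 10 libraries (adjusted p between 0.00305 and 0.0454 by edgeR or DESeq2) and without any one of exposed replicates 2 and 5 or control replicates 5 and 9. In the tunnel through which the new protein leaves, Rpl4 had 367, 399 and 449 CPM as lowest, median and highest exposed library and 291, 319.7 and 370.4 CPM in control. Rpl4 was higher by 0.30 ± 0.039 (SE; edgeR adjusted p = 2.07e-06), with the lowest exposed library just under the highest control. Rpl39, also of the tunnel wall, had 44.4 ± 4.9 CPM in exposed and 45.4 ± 2.8 CPM in control muscle and was not called (edgeR adjusted p = 0.662).

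Rpl23, Rpl26 and Rps7 are among the further members known to bind Mdm2. Rpl23 was higher by 0.17 ± 0.048 log2 units (SE; edgeR adjusted p = 0.00351). Rpl26 differed by -0.02 and Rps7 by 0.05 log2 units, and neither was called (edgeR adjusted p = 0.713 and 0.44), though Rps7 was called higher with library size alone (edgeR adjusted p = 0.0437). Rpl38, whose loss in mouse embryos alters the translation of Hox mRNAs, had 34.3 ± 2.8 CPM in exposed and 31.8 ± 2.2 CPM in control muscle (SD, n = 10 each; edgeR adjusted p = 0.0502), just above 0.05. It was called higher with each of the other 3 scalings, the DESeq2 test or a CPM of 1 in 10 libraries (adjusted p between 0.0031 and 0.0386 by edgeR or DESeq2), and without exposed replicates 1 to 4 (edgeR adjusted p = 0.0446). It was also called higher without any one of exposed replicates 2, 3 and 5 or control replicates 5, 9 and 10. Named pseudogenes of Rpl38 held counts equal to 25.0% of its own, the only member above 5% with at least 1000 counts, so its value is uncertain. Over the family, 297 named pseudogene rows held 0.446% as many counts as the members.

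Among small subunit genes with a known further role, Rps6, the target of S6 kinase, was higher (log2 fold change 0.16 ± 0.038 SE, edgeR adjusted p = 0.00178). Rps19, the first gene linked to Diamond-Blackfan anaemia in humans, was higher by 0.18 ± 0.048 (SE; edgeR adjusted p = 0.0023). Rps27a, made as a fusion with ubiquitin, was higher by 0.11 ± 0.037 (SE; edgeR adjusted p = 0.0157). Rps3, of the mRNA entry channel and also a DNA repair enzyme, had 117.0 ± 10.9 CPM in exposed and 119 ± 3.9 CPM in control muscle and was not called (edgeR adjusted p = 0.626). Rpsa, also known as a laminin receptor, had 273 ± 22.5 CPM in exposed and 266 ± 8.1 CPM in control muscle and was not called (edgeR adjusted p = 0.523).

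The subunits had the same median log2 fold change to 2 decimals. In the large subunit 21 of 46 tested genes were higher (45.7%) and 3 lower (6.52%), with a median of 0.11. In the small subunit 18 of 30 were higher (60.0%) and 2 lower (6.67%), with a median of 0.11, and the difference between these shares was not tested. Large subunit genes summed to 4295, 4700 and 5065 CPM as lowest, median and highest exposed library, against 3965, 4270 and 4560 CPM in control. Small subunit genes summed to 2810, 3158 and 3416 CPM in exposed libraries, against 2723, 2926 and 3100 CPM in control. The groups overlapped in both sums. All members together took 0.727% to 0.948% of counts in exposed libraries and 0.659% to 0.743% in control libraries.

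The ratio of the large to the small sum was 1.5 ± 0.032 in exposed and 1.46 ± 0.021 in control muscle (SD, n = 10 each), a log2 difference of 0.04. Rps13 had the largest fall in fold change of the family. The ratio was therefore also formed without it, a choice made after seeing the data. This ratio was 1.53 ± 0.03 in exposed and 1.52 ± 0.02 in control muscle. Without Rps13 and Rpl3l it was 1.47 ± 0.03 in exposed and 1.45 ± 0.02 in control muscle. The difference of the means with all genes was 0.037, and it was 0.014 without Rps13, smaller than either SD between libraries. Rpl4, with a mean of 398 CPM in exposed and 323 CPM in control muscle, stayed in each ratio. The part of single genes in the difference was not tested.

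**Figure D4:**
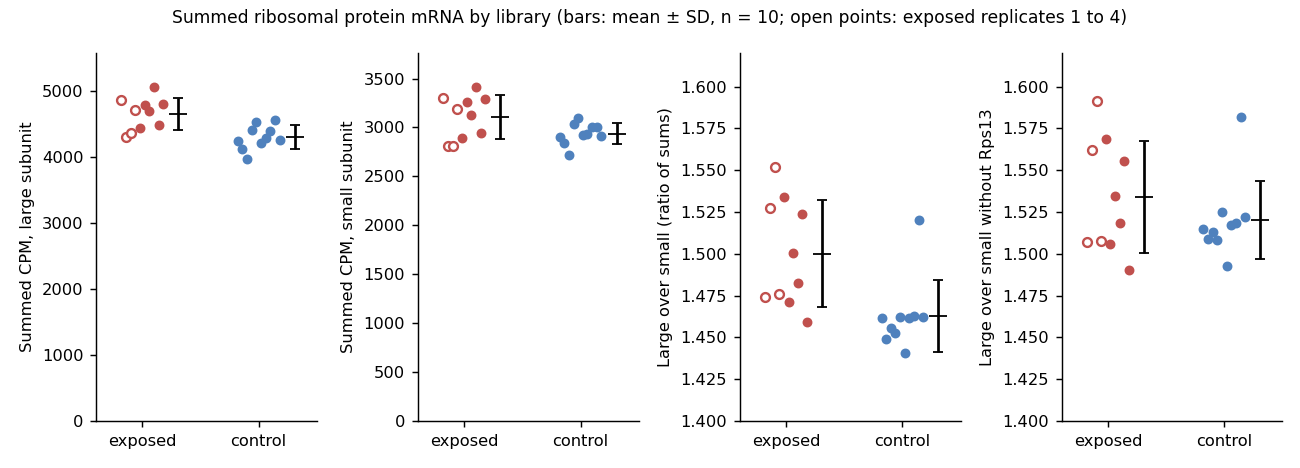
Summed CPM of large and small subunit genes and the ratio of the sums, with all genes and without Rps13, in 10 exposed and 10 control libraries (points; black bars mean ± SD; open points exposed replicates 1 to 4; the axes of the ratios do not start at 0). Both sums are higher on average in exposed libraries with overlap, and the ratio without Rps13 averages 1.53 in exposed and 1.52 in control libraries.

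The levels of most members spread wider over exposed than over control libraries. In 63 of 76 members (82.9%) the SD of log2 CPM was wider in exposed than in control muscle, against 60.5% of all tested genes. The median SD was 0.11 log2 units in exposed and 0.08 in control muscle. Large and small subunit genes deviated together within a library. Exposed replicate 8 was highest, with a median deviation from the control mean of 0.22 log2 units over large and 0.24 over small subunit genes and 72 of 76 members above the control mean. Exposed replicates 2, 3, 5 and 9 lay near the control mean, with medians between -0.04 and 0.04 over both subunits and 37 to 43 members above it. Control libraries held between 4 and 70 members above their own mean.

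Several members have a paralog or a further copy. The balance within a pair was compared as the log2 ratio of the copy to the general gene in each library. In 5 of 8 pairs both genes were tested, and the p-values come from a 2-sided permutation test with 100000 resamples, adjusted over the 5 pairs. Rps27l, a paralog of Rps27 that p53 induces in human cells, averaged 22.9 ± 2.4 CPM in exposed and 22.6 ± 0.8 CPM in control muscle (SD, n = 10 each) and was not called (edgeR adjusted p = 0.829), while Rps27 was higher. The log2 ratio of Rps27l to Rps27 was -1.61 ± 0.14 in exposed and -1.18 ± 0.09 in control libraries, and all 10 exposed libraries lay below the control mean. The difference of -0.43 had a permutation p of 2e-05, the smallest these resamples can give, and an adjusted p of 0.0001.

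Rpl22l1, which Rpl22 represses in mouse cells, rose to 12.2 ± 2.1 CPM in exposed muscle, against 8.78 ± 0.65 CPM in control (SD, n = 10 each; log2 fold change 0.47, edgeR adjusted p = 2.71e-05), while Rpl22 had 50.3 ± 5.7 CPM in exposed and 48.8 ± 2.4 CPM in control muscle and was not called (edgeR adjusted p = 0.501). Without exposed replicates 1 to 4 Rpl22 was called higher, by 0.15 log2 units (edgeR adjusted p = 0.00729), as it was with library size alone (edgeR adjusted p = 0.0286). The ratio of Rpl22l1 to Rpl22 was higher by 0.35 log2 units in exposed libraries (permutation test, adjusted p = 0.0012), with 10 of 10 above the control mean. Rpl7l1, a paralog of Rpl7, was lower (log2 fold change -0.15, edgeR adjusted p = 0.00273), and its ratio to Rpl7 was lower by -0.18 log2 units in exposed libraries (permutation test, adjusted p = 0.0012; 10 of 10 below the control mean). The call of Rpl7l1 was lost with library size alone (edgeR adjusted p = 0.111) and without exposed replicates 1 to 4 (edgeR adjusted p = 0.0666), whereas a ratio within a library does not depend on scaling apart from the prior count.

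Rpl3l is a form of Rpl3 found in skeletal muscle and heart. It had 155, 204 and 224 CPM as lowest, median and highest exposed library and 176, 193 and 212 CPM in control, and was not called (edgeR adjusted p = 0.615). Rpl3 had 39.6, 53.1 and 69.8 CPM in exposed and 39.5, 43.3 and 52.03 CPM in control libraries and was called higher (log2 fold change 0.23 ± 0.098 SE, edgeR adjusted p = 0.0379). Both genes split the exposed libraries. In replicates 1 to 4, Rpl3 was 57.9 to 69.8 CPM and Rpl3l 155 to 191 CPM, against 39.6 to 54.7 and 197 to 224 CPM in replicates 5 to 10. The 4 libraries are those with Schwann cell markers of 518 to 1504 CPM, and the part of these markers in the result was not tested. Without them Rpl3 was not called (log2 fold change 0.05, edgeR adjusted p = 0.628) and Rpl3l was higher (0.17, edgeR adjusted p = 0.00219). The call of Rpl3 was also lost in 11 of 20 fits that left out 1 library, namely exposed replicate 1, 2, 3, 4 or 7 or control replicate 1, 2, 3, 5, 6 or 10. It was lost as well with no filter (edgeR adjusted p = 0.101) and with limma-voom (adjusted p = 0.0943). The ratio of Rpl3l to Rpl3 differed by -0.17 ± 0.151 log2 units (SE; permutation test, adjusted p = 0.27), and by 0.13 without those 4 libraries (adjusted p = 0.21).

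Rps4l is annotated as a transcribed processed pseudogene and is no member. It had 1.25 ± 0.38 CPM in exposed and 1.28 ± 0.40 CPM in control muscle (SD, n = 10 each). Its ratio to Rps4x, the general gene, was lower by -0.20 log2 units in exposed libraries (permutation test, adjusted p = 0.037), and with a prior count of 0.5 in place of 2 the adjusted p was 0.22. It was between 0.051 and 0.069 without any one of exposed replicates 1, 7, 8 and 10 or control replicates 1, 2, 4, 6 and 9 (exact permutation test).

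**Figure D5:**
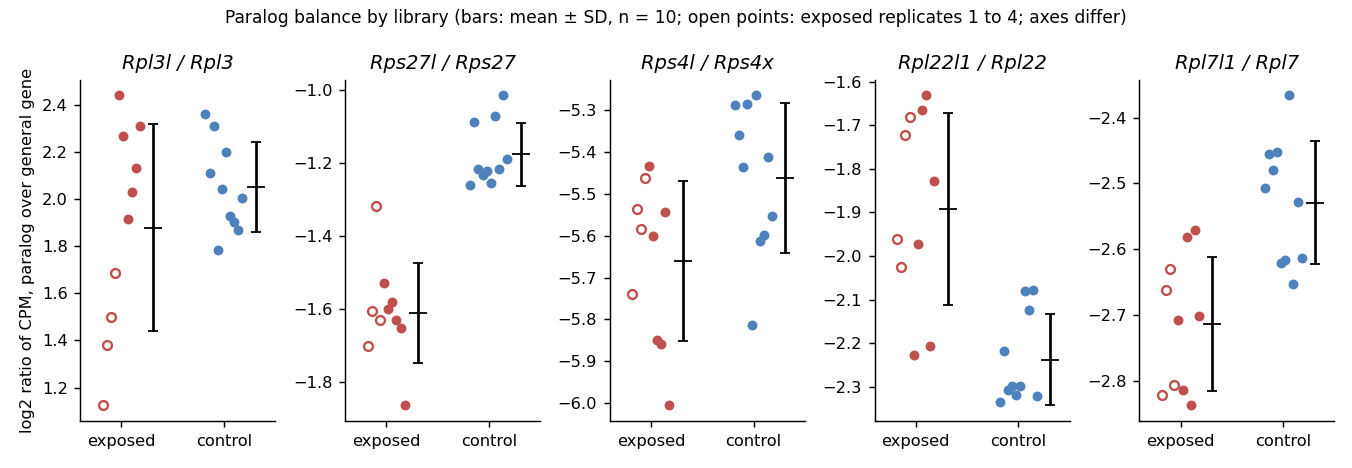
Log2 ratio of the CPM of a paralog to that of the general gene (y axes, which differ between panels) in 10 exposed and 10 control libraries for 5 pairs; black bars are mean ± SD, open points exposed replicates 1 to 4. The ratio of Rps27l to Rps27 averages -1.61 in exposed and -1.18 in control libraries, and the open points are the 4 lowest of the ratio of Rpl3l to Rpl3.

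Ribosomal proteins whose symbols fall outside the naming pattern were listed apart. Fau, whose product releases the small subunit protein eS30, was higher by 0.24 log2 units (edgeR adjusted p = 0.000138). Rack1, a scaffold protein on the small subunit, was higher by 0.21 (edgeR adjusted p = 0.000135). Rps3a1 was higher by 0.10 (edgeR adjusted p = 0.0367), a call lost in 10 of 20 fits that left out 1 library, namely exposed replicate 1, 4, 6, 8 or 10 or control replicate 1, 2, 3, 7 or 10. That call was lost as well without exposed replicates 1 to 4 (edgeR adjusted p = 0.0968), with no filter (edgeR adjusted p = 0.0757) and with limma-voom (adjusted p = 0.0514).

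Other mRNAs that carry the terminal oligopyrimidine tract went in both directions. Of 22 such genes, which include Rack1 and Fau, 8 were higher (36.4%) and 3 lower (13.6%) in exposed muscle, against 28.7% and 28.9% of all tested genes (median log2 fold change 0.09, against 0.02 over all genes). Eef2, the elongation factor that moves the ribosome along the mRNA, had 1513 ± 83.3 CPM in exposed and 1240 ± 80.9 CPM in control muscle (edgeR adjusted p = 9.86e-06). Eif3e, a subunit of an initiation factor, was higher by 0.28 (edgeR adjusted p = 5.71e-06). Tpt1, a calcium-binding growth-related protein, had 788 ± 62.7 CPM in exposed and 994 ± 43.9 CPM in control muscle (edgeR adjusted p = 1.42e-06; SD, n = 10 each in this paragraph). Eef1g, a subunit of the exchange factor of the elongation factor that brings tRNA, was also lower, by -0.30 log2 units (edgeR adjusted p = 8.66e-06). With library size alone 15 of the 22 genes were higher, with upper-quartile factors 14, and without exposed replicates 1 to 4, 13.

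Of 55 genes of ribosome assembly, 11 were higher (20.0%) and 13 lower (23.6%), both below the shares of all tested genes, 28.7% and 28.9% (median log2 fold change -0.01). Nop14, Wdr43 and Ebna1bp2, all nucleolar factors of pre-ribosomal RNA processing, were higher by 0.45, 0.41 and 0.35 log2 units (edgeR adjusted p between 6.46e-08 and 9.31e-07). Ltv1, a late factor of the small subunit, was lower by -0.31 log2 units (edgeR adjusted p = 1.66e-05). Of these 55 genes, 20 were higher and 6 lower with library size alone, and 19 and 8 with upper-quartile factors, settings that move all genes upward as given above. Without exposed replicates 1 to 4, 17 were higher and 7 lower. Of 15 tested genes of RNA polymerase I, which transcribes ribosomal RNA, 3 were higher (20.0%) and 5 lower (33.3%), and 6 were higher with either scaling or without those 4 libraries. Taf1d was higher by 0.51 and Znrd1 lower by -0.47 log2 units (edgeR adjusted p = 5.10e-07 and 2.64e-06). Taf1b and Ttf1 were lower as well. With 1 library left out, their log2 fold changes ran from -0.4637 to -0.4035 and from -0.2986 to -0.253.

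Host transcripts of small nucleolar RNAs, which guide the modification of ribosomal RNA, were higher in 8 of 11 tested genes (72.7%, against 28.7% of all tested genes) and lower in none, with a median log2 fold change of 0.35. Snhg8 had 5.09 ± 0.90 CPM in exposed and 2.94 ± 0.26 CPM in control muscle (SD, n = 10 each), 1.74-fold higher (edgeR adjusted p = 2.25e-07). Snhg6 and Snhg5 were higher by 0.45 and 0.50 log2 units (edgeR adjusted p = 7.18e-05 and 0.000145). Of 13 tested genes of ribosome hibernation and rescue, 4 were higher and 4 lower (30.8% each way), close to the 28.7% and 28.9% of all tested genes. Zfp598, the ligase that marks collided ribosomes, had 29.6 ± 1.9 CPM in exposed and 21.0 ± 0.6 CPM in control muscle (SD, n = 10 each), 1.41-fold higher (edgeR adjusted p = 4.81e-11). Map3k20, the kinase that senses stalled ribosomes, was lower by -0.20 log2 units (edgeR adjusted p = 0.00172). With library size alone 1 gene of this list was lower, and with upper-quartile factors 2.

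Markers of other cell types were read beside the family, and their part in the results above was not tested. All 10 Schwann cell markers, 3 of 10 macrophage markers, 2 of 8 fibroblast markers, 1 of 8 endothelial markers and 3 of 7 satellite cell markers were higher. None of the 10 macrophage markers, 4 fibroblast, 3 endothelial and 2 satellite cell markers were lower. None of the 5 erythroid markers was called, and 3 of 4 tested markers of cycling cells were lower. Macrophage markers summed to 75.3 to 153 CPM in exposed and 55.2 to 109 CPM in control libraries, fibroblast markers to 518 to 824 CPM in exposed and 731 to 1799 CPM in control libraries, and endothelial markers to 371 to 468 CPM in exposed and 406 to 539 CPM in control libraries. Satellite cell markers summed to 77.4 to 139 CPM in exposed and 109.7 to 129 CPM in control libraries. Slow fibre markers summed to 8339 to 18069 CPM in exposed and 23217 to 31905 CPM in control libraries. No marker in these lists was at 0 in all libraries. Of 10 genes common to all fibres, 1 was higher and 5 were lower, and they summed to 195754 to 281659 CPM in exposed and 220708 to 272741 CPM in control libraries.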

How the data were processed

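RNA of 20 soleus samples was sequenced as paired-end reads after depletion of ribosomal RNA, per the labels' protocols. The authors deposited raw counts per Ensembl gene with no normalization. The submitters' processing notes name the build GRCm39 and the tools Subread, featureCounts 1.5.1, MultiQC 1.15 and edgeR, without their roles. The sources used here state neither strandedness nor the gene annotation nor how reads shared by genes were handled. Groups were taken from the labels.

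Gene names, classes and mRNA lengths came from GENCODE M21 (GRCm38), which named 52000 of 56941 rows and 97.6% of counts. The length is that of a principal coding transcript with the longest coding sequence. The test was the edgeR 4.0.16 quasi-likelihood test in R 4.3.3 after filterByExpr (minimum count 10, minimum total 15), with TMM, robust fits and Benjamini-Hochberg adjustment over 16778 genes at 0.05. The common biological coefficient of variation was 0.149. An SE refers to the difference between groups in mean log2 CPM, with a prior count of 2. CPM values use TMM-scaled totals, and a count of 0 is given an upper limit of 3 counts over the total without that scaling. Pair ratios were tested by permutation in scipy 1.17.1, exactly where a group held fewer than 10 libraries. No set was tested as a set. Counts of genes and medians describe the lists.

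Members, gene lists, roles and pairs were chosen with earlier results of these data known. Of 201 symbols in all lists, 195 were found. The rule for naming took 20 genes with a known role, and the members of pairs. It also took the 5 largest rises and falls and the 5 highest levels per kilobase in each subunit. From each other list it took up to 4 genes by smallest p, and not every gene it took is described in the text. Marker genes, small nucleolar RNA rows, and members named for detection, overlap or the ends of a range are outside this rule. A few genes are not reported here. The edgeR test was checked on simulated data with 200 changed genes, and the permutation test on simulated normal values with and without a shift.

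Alternatives were DESeq2 1.42.0 size factors and test, upper-quartile factors, library size alone, limma 3.58.1 voom with quality weights, a CPM of 1 in 10 libraries, no filter, no mitochondrial and top 10 genes, pseudogene counts added, the sample number as a block, an adjusted p under 0.01, a prior count of 0.5, leaving out exposed replicates 1 to 4, and leaving out each library. Those for small nucleolar RNA rows and for the ratio of sums without Rps13 were added after seeing the data.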

Additional observations from a re-analysis of the deposited data

Results flagged for a closer look

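In 7 of 146 sets of 10 libraries of a group, one library lay apart from the others by more than 0.466 of the range, a gap that chance gives in about 1 of 20 sets. Exposed replicate 8 held the highest level of Rpl4, 448.6 CPM against 405.5 CPM in the next library, and of Eef2, 1722 CPM against 1554 CPM. This library also held the highest sums of large and small subunit genes, 5065 and 3416 CPM. Control replicate 9 held the lowest Rpl39, 38.54 CPM against 42.95 CPM in the next, and the highest ratio of large to small subunit sums, 1.52 against 1.463. Control replicate 3 held the lowest Rpl10a, 34.91 CPM against 41.0 CPM, and the lowest sums of both subunits, 3965 and 2723 CPM. Exposed replicate 7 held the lowest Ttf1, 6.406 CPM against 7.057 CPM, and control replicate 1 the lowest Znrd1, 4.565 CPM against 5.665 CPM.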

How the results depend on the processing

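In 32 fits, 32 members were called higher and Rps13 lower in every one. The number of lower members was 5, and 2 with upper-quartile factors, library size alone, an adjusted p under 0.01 or without exposed replicates 1 to 4; under each of these it was 1 large and 1 small subunit gene. Large subunit genes called higher were 34 with upper-quartile factors and 33 with library size alone, against 21. Listed genes outside the naming pattern called lower were 0 with library size alone or without exposed replicates 1 to 4. Other oligopyrimidine mRNAs called higher were 15 with library size alone, 14 with upper-quartile factors and 13 without those 4 libraries. Biogenesis genes higher and lower were 20 and 6, 19 and 8, and 17 and 7 under the same 3 settings, and RNA polymerase I genes higher were 6 under each. Hibernation and rescue genes lower were 1 with library size alone and 2 with upper-quartile factors. With a denominator without mitochondrial and top 10 genes, the summed large subunit level differed by 0.2099 log2 units, against 0.113 in the main setting. The summed small subunit level then differed by 0.1738, against 0.077, and the ratio of large to small stayed at 0.036. The Rps4l to Rps4x ratio had -0.2103 with a prior count of 0.5 (adjusted p 0.22) and between -0.2379 and -0.1606 with 1 library left out. The Rpl3l to Rpl3 ratio was 0.1302 without exposed replicates 1 to 4. The cause was not tested for any of these.

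The log2 fold changes that turned sign were all of genes not called. With upper-quartile factors and library size alone they were 0.04883 and 0.07219 for Rplp1, 0.03687 and 0.05656 for Rpl26, 0.02991 and 0.05182 for Rpl39, 0.03266 and 0.05173 for Rps3, 0.02797 and 0.05104 for Rps29, and 0.05942 and 0.0825 for Rps4l. With a CPM of 1 in 10 libraries they were 0.008388 for Rplp1 and 0.02433 for Rps4l. Without exposed replicates 1 to 4 they were 0.04101 for Rpl26, 0.007384 for Rpl39 and 0.03325 for Rps3. For Rps27l, voom gave -0.004636. For Rps4l, DESeq2 size factors gave 0.01181, the DESeq2 test 0.009789, no filter 0.002215, voom 0.005387 and added pseudogene counts 0.0002656. With 1 library left out the range was -0.03717 to 0.007012 for Rplp1, -0.04018 to 0.009154 for Rpl26, -0.05891 to 0.004641 for Rpl39, -0.06485 to 0.001142 for Rps29, -0.004396 to 0.03964 for Rps27l and -0.07375 to 0.085 for Rps4l.

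With the sample number as a replicate block, 36 members were higher and 5 lower (20 and 3 of the large, 16 and 2 of the small subunit), and 7 small nucleolar RNA rows were higher. Rpl3 and Rps3a1 then had an edgeR adjusted p of 0.0779 and 0.0754. The labels do not say whether equal numbers pair samples. Correlations of same-numbered deviations ran from -0.132 to 0.0982, and 0 of 10 exposed libraries correlated best with their own number. These correlations show no sign of pairing but cannot exclude it. Overlapping models, pseudogenes and low counts limit Rpl24, Rps10, Rpl13a and Rpl38.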

Other observations

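Introns of ribosomal protein genes carry many of the small nucleolar RNAs that guide the modification of ribosomal RNA, and their rows were read as a second view of the same loci. In GENCODE M21, 49 such rows lie within the bodies of 28 members, and 14 rows passed the count filter. Of these, 7 were higher and 0 lower, against 28.7% and 28.9% of all tested genes, in exposed muscle by the edgeR test at an adjusted p under 0.05, with a median log2 fold change of 0.60. With upper-quartile factors or library size alone 9 were higher, and without exposed replicates 1 to 4, 10, settings chosen after seeing the data. A row of low level can pass the filter through the group where it is higher. Among the called rows, Gm22270, Snord21 and Gm23130 averaged 0.610, 0.462 and 0.540 CPM in exposed and 0.298, 0.296 and 0.294 CPM in control muscle. The number called and the median describe only rows that passed, and the part of the filter in them was not tested. Snord15b, within Rps3, had 10.5 ± 4.5 CPM in exposed and 4.69 ± 0.92 CPM in control muscle (SD, n = 10 each), 2.21-fold higher (edgeR adjusted p = 0.000612), while Rps3 itself was not called. Snord15a, in the same host, was 1.90-fold higher (edgeR adjusted p = 0.000328). Gm26448 within Rpsa was 1.74-fold higher (edgeR adjusted p = 0.000167), and Rpsa was not called. Snora65, within Rpl12, differed by 0.00 log2 units and was not called (edgeR adjusted p = 0.996), while Rpl12 was higher. The protocol in the labels names total RNA and no size selection for small RNA. Fragments of such short RNAs are counted in few reads, and reads from the intron of a host pre-mRNA can fall on the same row, so mature small nucleolar RNA and unspliced host RNA cannot be told apart here.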
